A study of Mus musculus with 4 samples.

Results

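AP-1 transcription factors were followed in mouse macrophages that had been given lipopolysaccharide (LPS) with immune complexes or LPS alone. The group was taken as 10 genes, Fos, Fosb, Fosl1, Fosl2, Jun, Junb, Jund, Atf3, Batf and Maff, by every probe set whose annotation names 1 of them and no other gene. That gave 14 probe sets out of 45037 besides controls, and 13 of the 14 were bright enough to test, with all 10 genes among them. The LPS plus immune complexes group (LPS_IC) had 2 arrays from macrophages stimulated for 2 h with LPS at 10 ng/ml and antibody-antigen complexes, which engage Fc gamma receptors and which the series calls type II activation. The LPS group had 2 arrays from macrophages stimulated for 2 h with the same dose of LPS, a bacterial cell wall component sensed by TLR4, which the series calls classical activation. All 4 samples were bone marrow cultures kept for 7 days in medium with 20% L-cell supernatant, which supplies M-CSF, and all had received interferon-gamma (100 U/ml) overnight before the stimulus, a time that the labels give as 16 h for the LPS group only. No unstimulated sample was analysed here, so each level is that of an already stimulated cell. The labels name no mouse strain, age or sex, and they leave unsaid whether the 2 replicates of a group were independent cultures or mice, so the p-values reflect the scatter of these arrays, possibly technical scatter only.

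AP-1 is a family of dimers built from proteins with a basic region, which contacts DNA, and a leucine zipper, which holds the partners together. Jun proteins can pair with each other or with a Fos protein, whereas Fos proteins need a Jun partner. Fos, Fosb, Jun, Junb and Atf3 are immediate early genes: MAP kinases downstream of receptors such as TLR4 and Fc gamma receptors act on factors already present in the cell, and transcription follows without new protein synthesis. In macrophages AP-1 works beside NF-kB at cytokine, protease and growth factor genes, and some members, such as ATF3 and BATF, can restrain or redirect that output.

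The 4 arrays differed in ways that touch these genes. The first LPS_IC array had a median signal of 155.4, against 68.2 on the second LPS_IC array and 88.3 and 79.6 on the LPS arrays, although all 4 had a trimmed mean of 500. The fold change of each of the 10 genes is therefore also given without that array. As a check on RNA quality, the Gapdh control probe sets had 3′ over 5′ ratios of 0.78 and 0.86 on the LPS_IC arrays and 0.77 and 1.12 on the LPS arrays. The 8 macrophage markers summed to 133083 and 150410 on the LPS_IC arrays and to 152219 and 186681 on the LPS arrays. The lowest reading of Csf1r, Cd68, Cd14 and Lyz2 on any array was 12851, while Itgam fell to 729.7. Mertk read 3476.3 and 1857.9 with LPS_IC against 8525.9 and 3206 with LPS, a log2 fold change of -1.03 ± 0.46 with overlapping groups. Of the 8, 2 had a log2 fold change above 0 and 6 below. Markers of T cells, B cells, stromal, dendritic and mast cells did not exceed 311 on any array. Among them the T cell marker Cd8a read 255.1 and 89.6 with LPS_IC against 23.6 and 41.6 with LPS, a log2 fold change of 1.55 ± 0.84 (limma adjusted p = 1), while Cd3e, Cd3g and Cd3d did not exceed 94.2. Of the 5 neutrophil and progenitor markers on the array, S100a8 read 871.3 and 1137.6 with LPS_IC and 540.8 and 504.7 with LPS. Elane read 127.7 and 85.2 against 16.3 and 19.9. Mpo went the other way, with 65.7 and 79.9 against 95.2 and 108.2, and Camp and Ngp overlapped between the groups. The 5 summed to 1497 and 1467.4 against 925.2 and 847.7, with S100a8 the brightest of them on every array. Of the 4 tested, 2 had a log2 fold change above 0 and 2 below, with a median of 0.03. The part of these markers in the AP-1 values was not tested.

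Among the 10 genes, each by its brightest probe set, Fosl1, Fosb, Fos, Jun and Atf3 had higher signals on both LPS_IC arrays than on either LPS array. Their fitted fold changes between the groups ran from 1.51 for Atf3 to 3.74 for Fosl1. Over single pairs of arrays, both the smallest and the largest gap were those of Fosb, 0.25 and 2.83 on the log2 scale. Fosl2 was lower on both LPS_IC arrays, and Maff, Junb, Jund and Batf overlapped between the groups. Without a replicate block, no gene of the family passed limma's test across all 27022 tested probe sets (0 of 10 at adjusted p under 0.05, against 0.0621% of all 12891 tested genes called higher and 0% called lower), and 5 of 10 had an unadjusted limma p under 0.05 on the higher side, against 1.99% of all genes, and 0 on the lower side, against 1.14%. With the replicate number as a block, 6 of 10 passed, beside 671 of all 27022 probe sets. The labels do not say that equal numbers pair samples, and that fit gives no weight to the spread of a single probe set. Higher in all 4 pairs of 1 array of each group were 5 of 10, against 13.2% of all genes. Lower in all 4 pairs was 1 of 10, against 13.1%, and 4 of 10 overlapped, against 73.7%. The median log2 fold change of the 10 was 0.72, beside 0.05 over all tested genes, and it was 0.51 beside -0.04 without the first LPS_IC array. In RNA of whole cultures, a change in how many cells express a gene and a change in the level per cell cannot be told apart. With 2 arrays a group, an exact two-sided permutation test of a single gene cannot go below p = 0.333.

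**Figure D1:**
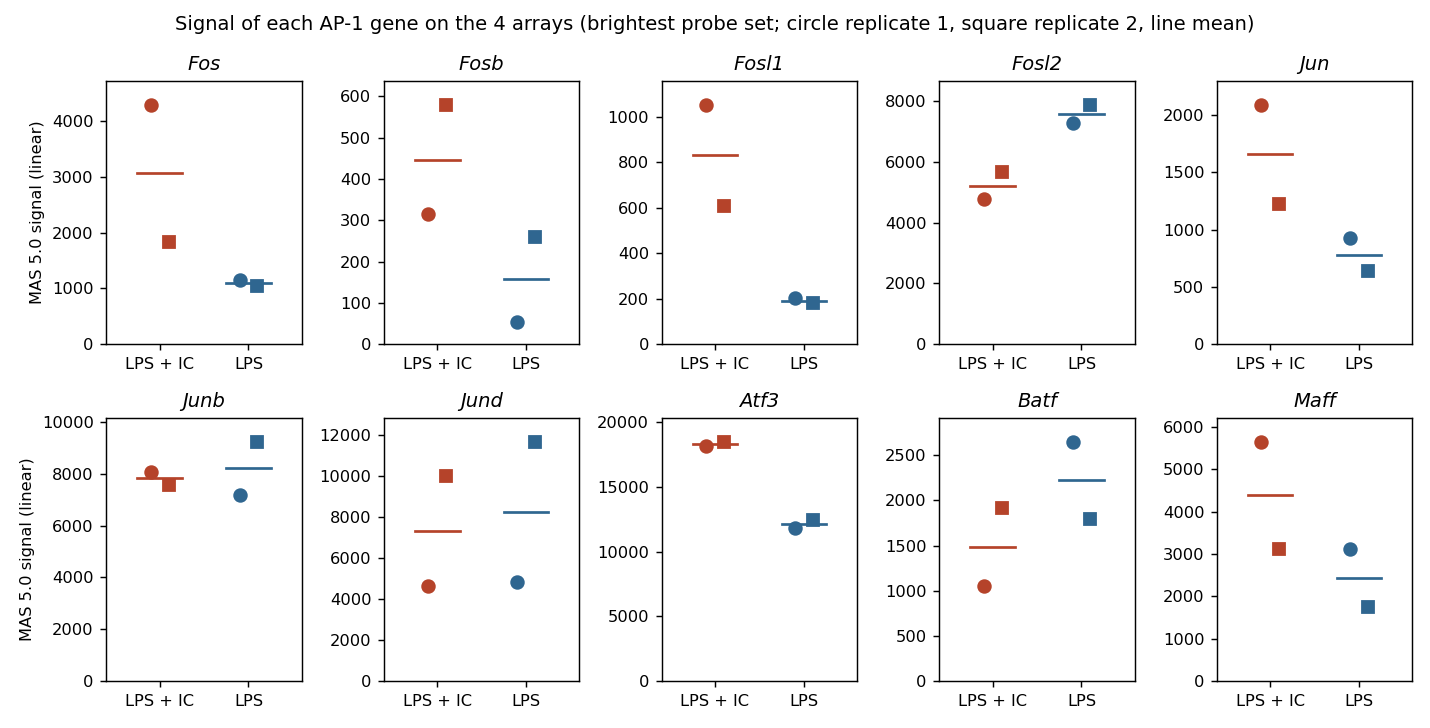
MAS 5.0 signal (linear vertical axes that start at 0, 1 scale per gene) of the brightest probe set of each AP-1 gene, with LPS plus immune complexes (LPS + IC) left and LPS right. Points are single arrays, circles for replicate 1 and squares for replicate 2, and lines are means of 2 arrays. The groups do not overlap for Fos, Fosb, Fosl1, Fosl2, Jun and Atf3. The 2 arrays of a group lie far apart for Jund, for Fos with LPS + IC and for Fosb with LPS, among others.

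Fosl1, Fosb and Fos had the highest fold changes of the family, while Fosl2, also a Fos gene, was below 0. Fosl1, which encodes FRA-1, a Fos protein without the C-terminal activation domain of c-Fos and itself a known target of AP-1, read 1053.2 and 609.5 on the LPS_IC arrays and 201.8 and 180.7 on the LPS arrays. Both LPS_IC readings lay at least 1.46 above both LPS readings on the log2 scale, and Fosl1 alone among the 10 was at least 2-fold higher in all 4 pairs, against 0.783% of all genes (0 of 10 were at least 2-fold lower, against 0.186%). Its log2 fold change of 1.90 ± 0.44 (SE, 2 arrays per group) stood at the 99.6th percentile of all tested probe sets, with limma adjusted p = 0.262. The dimmer Fosl1 probe set read 140.2 and 85.6 with LPS_IC and 27.2 and 115 with LPS, so its groups overlapped, with a log2 fold change of 0.61 ± 0.81. The difference at the brighter Fosl1 probe set was 1.52 without the first LPS_IC array and 2.28 without the second.

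Fos, the c-Fos gene and the best known immediate early gene, read 4283.8 and 1838.3 with LPS_IC and 1151.8 and 1041.6 with LPS. The LPS arrays lay close together and below both LPS_IC arrays, of which the first was over 2-fold brighter than the second. The log2 fold change was 1.33 ± 0.42 (limma adjusted p = 0.915, unadjusted p = 0.0086). It was 0.73 without the first LPS_IC array and 1.94 without the second, so the size of the Fos difference depended on which LPS_IC arrays were kept. Fosb, which encodes FosB and, through splicing, the shorter deltaFosB, which the single probe set here need not tell apart, read 315.1 and 579.3 with LPS_IC and 53.7 and 260.2 with LPS. These readings were dim and spread within both groups, and the gap between the nearest arrays of the 2 groups was 0.25 on the log2 scale. The Fosb log2 fold change of 1.54 ± 0.60 (limma adjusted p = 1, unadjusted p = 0.0247) was 1.95 without the first LPS_IC array, 2.43 without LPS replicate 2 and 0.66 without LPS replicate 1.

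Fosl2, which encodes FRA-2, a Fos protein that like FRA-1 lacks the strong activation domain, differed in the other direction. Its brighter probe set read 4767.1 and 5672.7 with LPS_IC and 7280.5 and 7870.1 with LPS. Both LPS_IC arrays were below both LPS arrays, with a log2 fold change of -0.54 ± 0.29 (limma adjusted p = 1). It was -0.41 without the first LPS_IC array and also -0.41 with quantile normalization. The 9 tested reference genes, such as Actb and Eef1a1, had a median of -0.22. The part of such a shift in the Fosl2 value was not tested. The dimmer probe set read 1042.5 and 953.5 against 885.1 and 1141.6, with overlapping groups and -0.01 ± 0.38. The probe sets of Fosl2 thus did not show the same difference, and which transcripts each one binds is not given in the sources used here.

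Jun was the only Jun gene whose groups did not overlap at the brightest probe set. Jun, the c-Jun gene, whose protein is the strongest activator of the family and acts on its own promoter, read 2088.3 and 1225.5 with LPS_IC and 925.2 and 640.6 with LPS. The lower LPS_IC reading still exceeded the higher LPS reading, and the log2 fold change was 1.03 ± 0.41 (limma adjusted p = 1, unadjusted p = 0.028). The second Jun probe set read 491.2 and 363.4 against 237.8 and 225.7, again without overlap, with 0.79 ± 0.43. Jun was the 1 gene of the family with more than 1 tested probe set in which all were higher in all 4 pairs. Without the first LPS_IC array the brighter probe set gave 0.65, and without the second 1.40.

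Junb and Jund showed no separation of the groups at their brightest probe sets. Junb, whose protein is a weaker activator that can oppose c-Jun, read 8090.4 and 7593.7 with LPS_IC and 7185.3 and 9253.7 with LPS, so both LPS_IC readings lay between the LPS readings. Its log2 fold change was -0.06 ± 0.28, and -0.10 without the first LPS_IC array, and it turned to 0.09 with quantile normalization and 0.12 without LPS replicate 2. Jund, whose protein is present in resting cells and is less inducible than the other Jun proteins, read 4636.4 and 10012.3 with LPS_IC and 4807.8 and 11666.6 with LPS. In both groups the array numbered 2 was more than 2-fold brighter than the array numbered 1, and this difference exceeded that between the stimulations. The Jund log2 fold change was -0.14 ± 0.44, and it turned to 0.42 without LPS_IC replicate 1 and to 0.50 without LPS replicate 2. A second Jund probe set read 163.4 and 29.9 against 18 and 14, higher on both LPS_IC arrays, but was too dim to be tested.

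**Figure D2:**
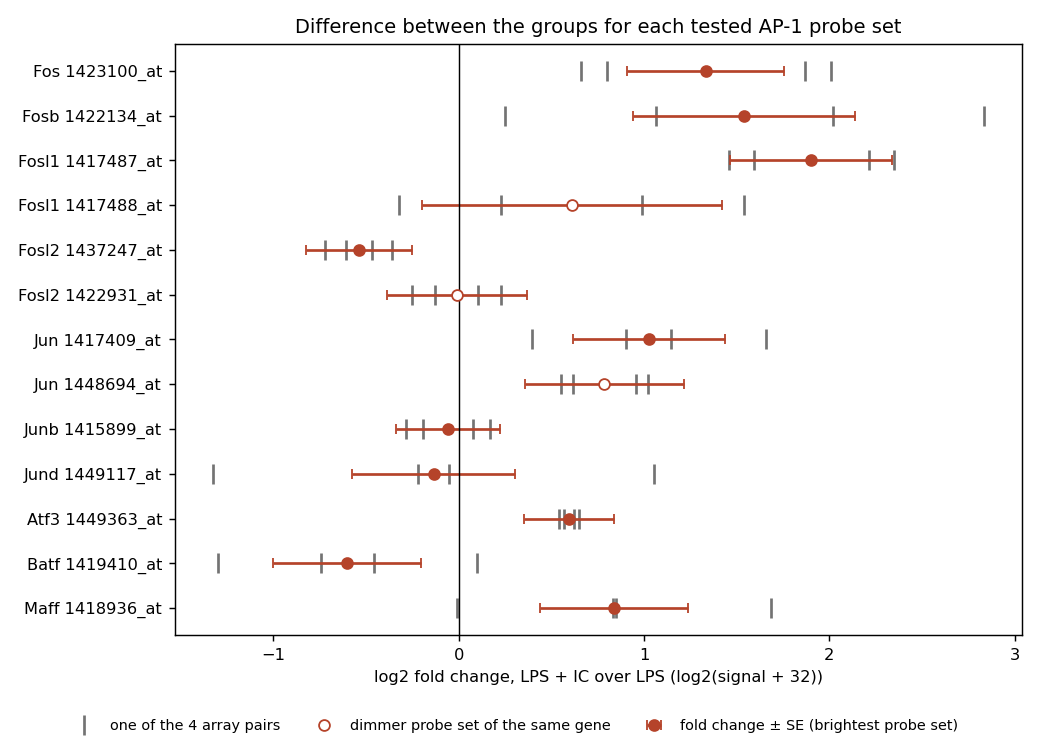
Log2 fold change of LPS + IC over LPS on the log2(signal + 32) scale for the 13 tested AP-1 probe sets, as circles with limma's standard error (filled for the brightest probe set of a gene, open for a dimmer one), and as grey ticks for the 4 pairs of 1 array of each group. All 4 ticks lie above 0 for Fos, Fosb, the brighter Fosl1 probe set, both Jun probe sets and Atf3, and below 0 for the brighter Fosl2 probe set.

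Atf3 and Batf encode bZIP proteins that pair with Jun proteins. Atf3 was higher on both LPS_IC arrays, whereas the Batf groups overlapped. Atf3, a stress-induced factor that as a homodimer represses transcription and is known in mouse macrophages to limit cytokine genes switched on through Toll-like receptors, read 18196.8 and 18510.6 with LPS_IC and 11797.9 and 12486.2 with LPS. The arrays of each group were within 1.06-fold of each other, and the groups were well apart, with log2 differences from 0.54 to 0.65 over the 4 pairs. The log2 fold change was 0.60 ± 0.24, a 1.51-fold difference, with limma adjusted p = 1 and unadjusted p = 0.0301. The limma standard error of Atf3 comes largely from the spread of other probe sets of like brightness. Its difference was 0.61 without the first LPS_IC array and lay between 0.40 and 0.77 over 14 other settings.

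Batf, which encodes a small protein with a basic region and zipper but no activation domain of its own, and which works with IRF factors in lymphocytes and dendritic cells, read 1056.7 and 1918.5 with LPS_IC and 2650.4 and 1791.8 with LPS. The second LPS_IC array lay between the LPS arrays, so the groups overlapped. The log2 fold change was -0.60 ± 0.40 (limma adjusted p = 1), -1.02 without the second LPS_IC array and -0.18 without the first. Batf had the lowest fold change of the 10 genes over all 4 arrays, but Fosl2 was lower without the first LPS_IC array and Fosl2 and Jund were lower without the first LPS array. The Batf value without the first LPS_IC array was within its standard error of 0.

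Maff encodes MafF, a small Maf protein, which likewise has no activation domain and which pairs with NRF2, BACH1 and other partners at stress response genes. It read 5650.1 and 3108.7 with LPS_IC and 3126.8 and 1734.3 with LPS. The groups touched, since the second LPS_IC array and the first LPS array differed by -0.01 on the log2 scale, and the other 3 pairs were higher with LPS_IC. The log2 fold change was 0.84 ± 0.40 (limma adjusted p = 1, unadjusted p = 0.0581), and 0.41 without the first LPS_IC array.

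**Figure D3:**
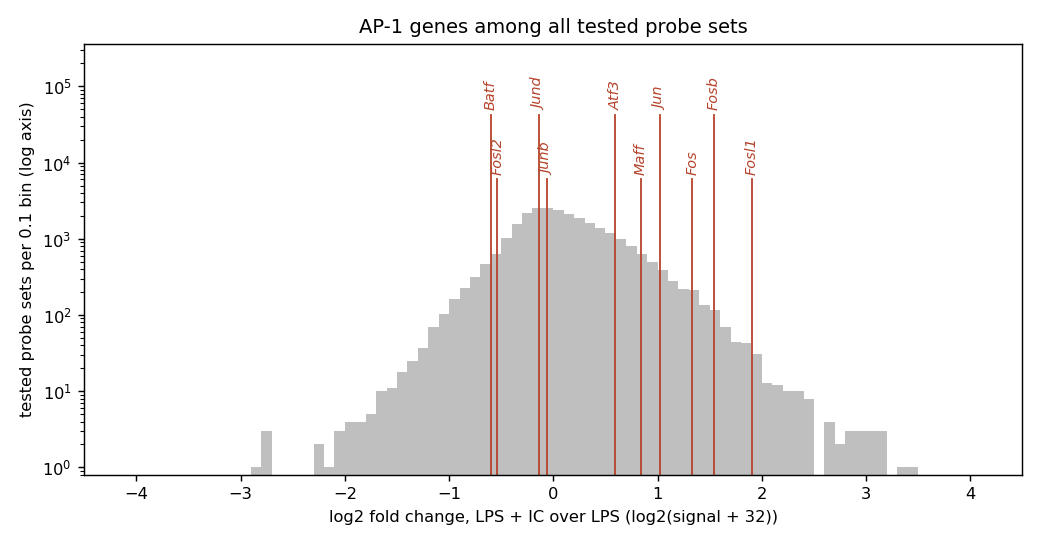
Histogram of the log2 fold change of LPS + IC over LPS for all 27022 tested probe sets (bins of 0.1, log vertical axis), with red lines at the brightest probe set of each AP-1 gene. Line heights only keep the names apart. Fosl1 at 1.90, Fosb at 1.54 and Fos at 1.33 lie in the upper tail, Junb and Jund near the middle, and Fosl2 and Batf below 0.

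The promoters of several of these genes are known to carry elements bound by AP-1, ATF and CREB proteins, so the windows of members that were higher in at least 3 of 4 pairs are shown where they hold such letters, with 1 of the Maff windows. RefSeq windows on GRCm38.p6, from 250 bases before to 50 bases after the annotated start, were at hand for 9 of the 10 genes (all but Fosl1), in 11 windows because Maff has 3. Both strands were searched for TGACTCA, the classic AP-1 site, for TGACGTCA, the cAMP response element, for TGACGT, which is part of TGACGTCA, for TGACATCA, the variant known from the Jun promoter, and for the CArG box bound by SRF. TGACGT lay in 4 of the 11 windows, those of Fos, Atf3 and Batf and 1 of Maff, against 7.51% of all 32851 windows. TGACATCA lay in 2 of the 11, that of Jun and 1 of Maff, against 3.62%, and TGACGTCA in 1 Maff window, against 1.79%. TGACTCA, found in 5.2% of all windows, and the CArG box, found in 1.63%, had no match in the 11 windows. Sites more than 250 bases before the start lie outside these windows, so a missing match does not show that a promoter lacks the site. The Fos window is chr12:85473640-85473939 on the + strand, with TGACGT at positions -66 to -61 from the start. The Jun window is chr4:95052173-95052472 on the - strand, with TGACATCA at positions -45 to -38. The Atf3 window is chr1:191183284-191183583 on the - strand, with a match at positions -8 to -3 that reads TGACGT on the opposite strand. The second Maff window is chr15:79347270-79347569 on the + strand, with TGACGTCA at positions -29 to -22. Each is given 5′ to 3′ along the gene, with the matches in capitals.
Fos: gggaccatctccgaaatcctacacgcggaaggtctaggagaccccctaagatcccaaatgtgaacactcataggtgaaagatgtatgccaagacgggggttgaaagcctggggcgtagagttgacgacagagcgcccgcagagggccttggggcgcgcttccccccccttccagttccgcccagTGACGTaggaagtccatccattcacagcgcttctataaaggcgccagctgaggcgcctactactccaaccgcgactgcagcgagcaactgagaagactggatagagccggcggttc
Jun: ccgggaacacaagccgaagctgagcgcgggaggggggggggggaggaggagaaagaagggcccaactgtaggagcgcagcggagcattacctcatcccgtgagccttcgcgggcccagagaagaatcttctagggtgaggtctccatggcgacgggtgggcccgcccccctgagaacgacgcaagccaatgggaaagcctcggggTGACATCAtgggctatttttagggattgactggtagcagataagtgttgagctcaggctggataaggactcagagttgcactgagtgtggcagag
Atf3: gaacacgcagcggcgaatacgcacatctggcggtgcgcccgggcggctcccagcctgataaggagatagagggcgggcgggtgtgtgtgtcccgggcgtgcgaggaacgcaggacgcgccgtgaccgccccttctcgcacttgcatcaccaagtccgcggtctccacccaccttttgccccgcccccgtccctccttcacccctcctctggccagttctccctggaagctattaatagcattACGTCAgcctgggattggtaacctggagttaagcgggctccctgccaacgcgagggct
Maff: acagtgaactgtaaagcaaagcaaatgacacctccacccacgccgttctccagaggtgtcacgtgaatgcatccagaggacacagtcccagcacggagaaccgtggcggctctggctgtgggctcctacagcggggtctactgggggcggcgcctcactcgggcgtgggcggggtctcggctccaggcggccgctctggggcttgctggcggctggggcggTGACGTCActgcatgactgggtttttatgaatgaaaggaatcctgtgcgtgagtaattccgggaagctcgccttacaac
The matches are a description of these letters, and Batf, whose window also holds TGACGT, was not among the genes with higher signals.

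Among other bZIP genes, which include partners of the family, Mafk had the highest fold change and Batf3 the lowest. Of 11 tested, 0 passed limma's adjusted threshold, and 1 had an unadjusted p under 0.05 on each side, against 1.99% of all genes on the higher and 1.14% on the lower side. In all 4 pairs 2 were higher and 2 lower, near the 13.2% and 13.1% of all genes, and the median log2 fold change was -0.0033. Mafk, a small Maf gene like Maff, had readings of 3778.6 and 3006.3 with LPS_IC against 1617.9 and 1268.4 with LPS, a log2 fold change of 1.22 ± 0.35 (limma adjusted p = 0.639). Mafg, the remaining small Maf, read 2456.1 and 1813 against 1450.3 and 1315.6, with 0.60 ± 0.36, so both of these were higher in all 4 pairs while Maff was higher in 3. Batf3, a relative of Batf known for its part in dendritic cell development, read 125.8 and 312.9 against 466.9 and 464.8, with -1.09 ± 0.48. Atf5 had -0.48 ± 0.40, and the other 7 tested genes lay between -0.36 and 0.29.

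Genes known as AP-1 targets had a median of 0.31 on the log2 scale (17 tested), with 13 above 0, against 54.1% of all genes. In all 4 pairs 5 were higher and 2 lower, against 13.2% and 13.1% of all genes, and 4 and 2 had an unadjusted limma p under 0.05 on the higher and the lower side, against 1.99% and 1.14%. Only Hbegf, a growth factor of the EGF family, passed limma's test (1 of 17 against 0.0621% of all genes), at 2.99 ± 0.36 with adjusted p = 0.0236. Hmox1, the heme oxygenase gene, also a target of NRF2 and small Maf dimers, read 13583.9 and 5173.6 with LPS_IC against 3195.5 and 1426 with LPS, a log2 fold change of 1.96 ± 0.48 (limma adjusted p = 0.322). Mmp12, macrophage elastase, read 760 and 1091.5 against 204.1 and 453.1, with 1.48 ± 0.46. Plau, the urokinase gene, read 9292.2 and 2176.9 against 3283.1 and 839.9, so its groups overlapped and its arrays differed by number more than by stimulation. The other 13 lay between -0.91 and 1.16. These genes have many regulators besides AP-1.

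Upstream of AP-1, 17 kinase and SRF or ternary complex factor genes were tested, with 0 past limma's adjusted threshold, 0 and 2 with an unadjusted p under 0.05 on the higher and the lower side (1.99% and 1.14% of all genes), and a median of -0.10. In all 4 pairs 3 were higher and 2 lower, near the 13.2% and 13.1% of all genes. Map3k5, which encodes ASK1, a kinase upstream of JNK and p38, read 1076.6 and 1223.7 with LPS_IC against 3152.4 and 3773.3 with LPS. Its log2 fold change of -1.56 ± 0.34 (limma adjusted p = 0.232) was the lowest among the listed genes. Rps6ka5, the kinase MSK1, had -1.10 ± 0.41. Srf, the factor that drives Fos through its serum response element, read 1215.8 and 1125.3 against 537.5 and 842, with 0.77 ± 0.40. Elk1, a partner of SRF, was dim, at 284.2 and 142 against 115.7 and 86.8, and had 0.82 ± 0.57. Reference genes had a median of -0.22 over 9 tested, all below 0.

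**Figure D4:**
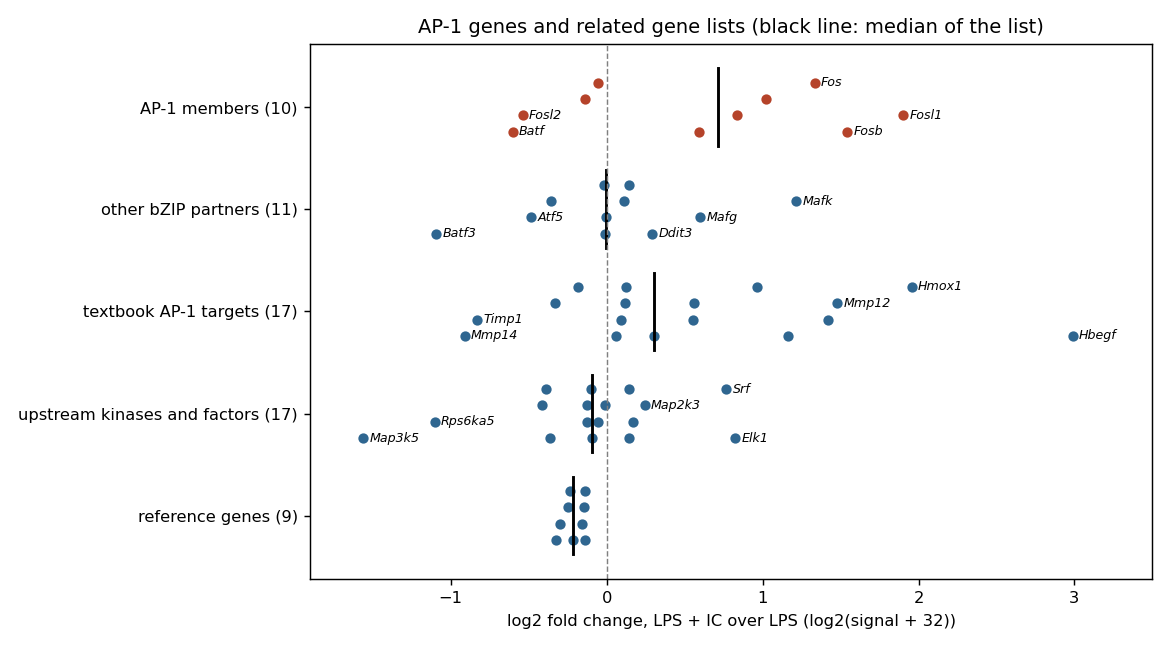
Log2 fold change of LPS + IC over LPS (log2(signal + 32)) of each tested gene in 5 lists, by its brightest probe set, with the number tested in parentheses, black lines at list medians and vertical offsets only to keep points apart. The 10 AP-1 genes have a median of 0.72 and the 9 reference genes one of -0.22.

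Fosl1 or Fosb had the highest fold change of the family under each scaling, pseudocount and left-out array plotted for these genes. Fosl1 stayed between 1.26 and 2.28, Fosb between 0.66 and 2.43, Fos between 0.73 and 1.94, Jun between 0.65 and 1.40 and Maff between 0.41 and 1.27 over 14 other settings each. Fosl2 stayed between -0.74 and -0.28 and Batf between -1.02 and -0.18. The median of the family stood above that of all tested genes by 0.67 as deposited and by 0.88 with quantile normalization. Median centring lowered every gene alike, to a median of -0.15 over all genes, and so leaves that gap as it was.

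**Figure D5:**
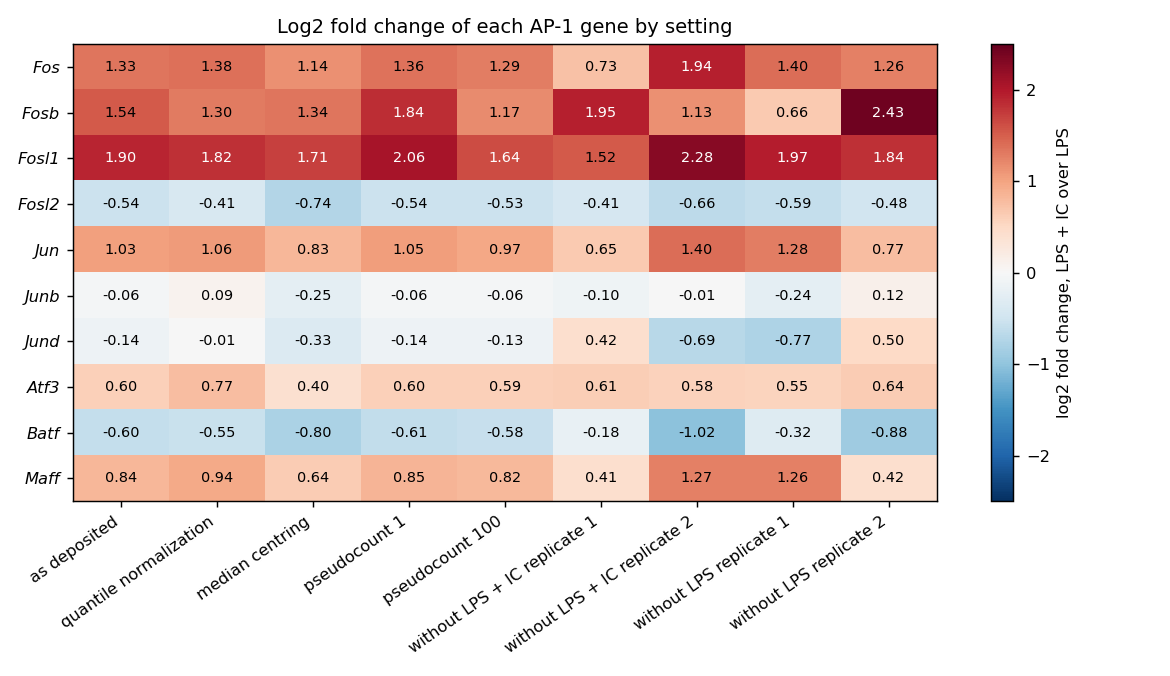
Log2 fold change of LPS + IC over LPS of each AP-1 gene (rows) as deposited, with other scalings or pseudocounts, and without each array in turn (columns), with red above 0 and blue below 0. Signs differ between columns for Junb and Jund, and the Fos value is lowest, at 0.73, without the first LPS + IC array.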

How the data were processed

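Total RNA from 4 macrophage samples was hybridised to a mouse Affymetrix array. The deposited intensities are linear signals that the authors computed in MAS 5.0 (named in the submitters' processing notes), which scales each array as a whole. The table used here has no detection calls. Gene names are those of GEO's platform annotation, which names no genome build.

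Signals were taken as log2(signal + 32), which understates changes of dim probe sets. Control probe sets (64) and those with a mean under the 40th percentile (69.6) were left out. LPS_IC over LPS was fitted with limma 3.58.1 (R 4.3.3; lmFit, eBayes with a variance trend, no block, two-sided), with Benjamini-Hochberg adjustment over 27022 probe sets. Each gene took its brightest tested probe set. Promoter letters were searched in Python 3.11.15. The method was tested on simulated data. Only 2 arrays per group limit the precision. The members and gene lists were chosen with earlier results of these data known, so no list was tested as a set. All members were named, and of each other list except the reference genes up to 4, called genes before others and larger changes before smaller. Alternatives were quantile normalization, median centring, pseudocounts of 1 and 100, no filter or the 60th percentile, no variance trend, the replicate number as a block, each array left out, adjusted p under 0.1, averaged probe sets of a gene, and no _x_at or _s_at probe sets.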

Additional observations from a re-analysis of the deposited data

How the results depend on the processing

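Without a block, 0 AP-1 genes passed under any scaling, pseudocount, filter, left-out array or at adjusted p under 0.1, and their median log2 fold change stayed between 0.51 and 0.86. With 1 array left out, the lone array of that group is given the spread of the other group, so those fits say little of stability. A fit with the replicate block called 671 of 27022 probe sets (404 higher, 267 lower), against 14 without it. It called 6 of 10 AP-1 genes, counted by their brightest probe set, all higher with LPS_IC. These were Fos (limma adjusted p = 1.21e-05), Fosl1 (1.62e-05), Maff (0.00728), Atf3 (0.00848), Jun (0.0119) and Fosb (0.0158). The labels do not say that equal numbers pair samples. Deviations of same-numbered arrays from their group means correlated at 0.38 over probe sets. Log2 signals of same-numbered arrays correlated at 0.908 for replicate 1 and 0.965 for replicate 2, against 0.886 within LPS_IC and 0.933 within LPS. With the block, limma's prior degrees of freedom became infinite, as they did with median centring and without either LPS array. That leaves no weight in these fits to the spread of a single probe set. Same-numbered Maff signals, LPS_IC over LPS, had ratios of 1.81 and 1.79, those of Atf3 1.54 and 1.48, and those of Jun 2.26 and 1.91. Over the whole array the number of probe sets called was 0 with quantile normalization, 47 with median centring, 23 and 6 with pseudocounts of 1 and 100, 89 without a filter, 4 with the 60th percentile and 0 without the variance trend. It was 0 without either LPS_IC array, and 97 and 109 without LPS replicates 1 and 2. Signs turned for Junb (0.087 with quantile normalization, and -0.24 to 0.12 with 1 array left out, above 0 without LPS replicate 2) and Jund (-0.77 to 0.50 with 1 array left out, 0.50 without LPS replicate 2 and 0.42 without LPS_IC replicate 1). The cause was not tested.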
